A study of Mus musculus with 3 samples.

Results

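The S100 genes measured here were S100a1, S100a3, S100a4, S100a6, S100a8, S100a9, S100a10, S100a11, S100a13 and S100a16. They were taken as every non-control probe whose gene name in the array files is one of these 10 symbols, which gave 10 probes, 1 for each gene, of 41174 probes in all. The RNA came from EpH4-PR cells. These are EpH4 cells, which derive from the epithelium of a mouse mammary gland, made to express the A isoform of the progesterone receptor (PR-A) by stable transfection, selected as clones and kept in medium with 10% FBS until about 75% confluent. It was hybridised in Cy5 to 3 Agilent whole mouse genome arrays against a commercial mouse standard RNA in Cy3, with the same dye order on each array, so that dye and RNA source cannot be told apart. Every value below is therefore a level relative to the reference RNA. Vector-only cells (EpH4-EV) were not analysed here, and no value measures an effect of PR. Whether the 3 arrays hold separate cultures is not stated in the sources used here, so the p-values measure the spread between these arrays, which may be technical.

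S100 proteins are small calcium-binding proteins of the EF-hand class, found in vertebrates. Most act as dimers that open a hydrophobic face when calcium binds, and through it they attach to annexins, myosins, p53 and other partners inside the cell, while several are also released and act on cell surface receptors. Most of the genes lie side by side in a single cluster, next to the genes that build the cornified envelope of the epidermis. S100a4 is widely used as a mesenchymal marker, S100a8 and S100a9 form the neutrophil protein calprotectin, and S100a6, S100a10 and S100a11 are abundant in many epithelia.

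Relative to the reference RNA, the S100 genes of EpH4-PR cells ranged from S100a4, 6.78-fold lower, to genes near a ratio of 1, and none was called higher. A probe was called when limma gave an adjusted p under 0.05, with Benjamini-Hochberg adjustment over all probes, and the log2 ratio was at least 1 either way. By this rule 2 of the 10 probes were lower (S100a4 and S100a13) and 0 were higher, where over all probes 3.85% were called lower and 2.25% higher. No S100 probe reached the size limit upwards at any p, the highest mean log2 ratio being 0.19. A second test compared the log2 ratios of each probe with 0, using the spread of that probe alone. With the same size limit it also gave 2 lower and 0 higher, both at an unadjusted p under 0.05 and after Benjamini-Hochberg adjustment. The paper's own array analysis was not repeated here. Every S100 probe but that of S100a9 was flagged by the scanner software as well above background for both dyes on all arrays, and among the 25728 probes so flagged 5.69% were called lower and 3.46% higher. Without the limit on size, 7 of the 10 lay below 0 on the log2 scale with an adjusted p under 0.05 (24.6% of all probes) and 1, S100a9, lay above 0 (25.7% of all probes). The median log2 ratio was -0.49 over the 10 probes and -0.0094 over all probes. A setting without correction for intensity (median centring of each array) moved the median of the S100 probes to 0.11, turned the sign of 4 S100 genes and called 2 higher, as given with the genes concerned.

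**Figure D1:**
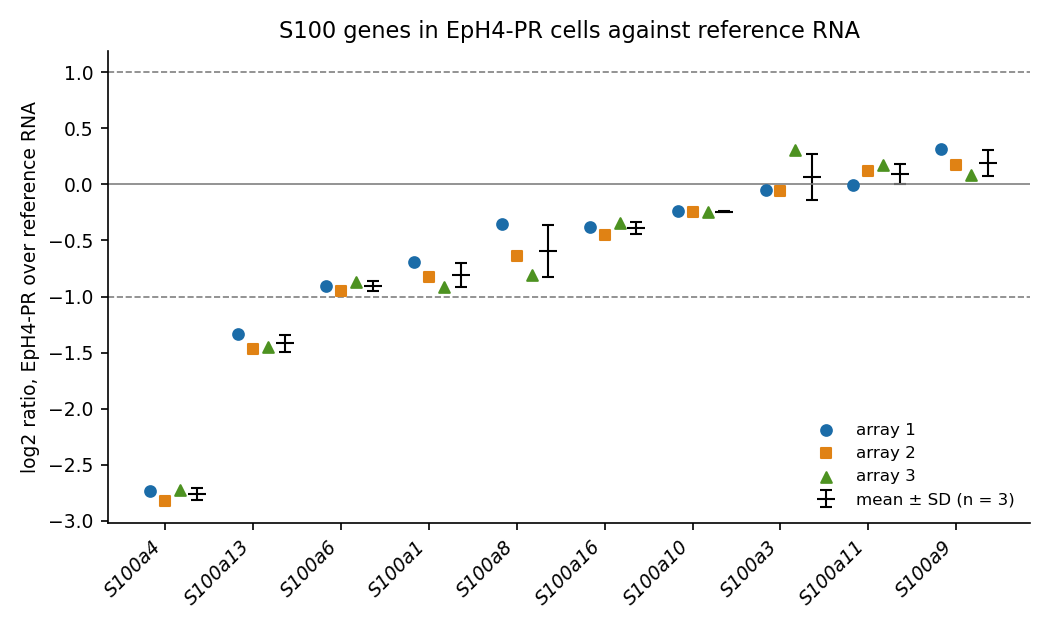
Log2 ratios (EpH4-PR against the reference RNA) of the 10 S100 genes (coloured points, 1 for each array) with the mean ± SD over 3 arrays in black and dashed lines at -1 and 1. S100a4 (mean -2.76) and S100a13 (mean -1.42) lie below the lower dashed line on every array, and the other genes lie between the dashed lines.

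The promoter windows of S100a4, S100a6, S100a13 and S100a11 are printed first because they stand for the main contrasts in the values: a gene called lower and a bright gene near it in the cluster, the other gene called lower, and a bright gene near a ratio of 1. Each window runs from 250 bases before to 50 bases after a RefSeq start site in build GRCm38.p6, 5′ to 3′ on the gene's strand. Capitals mark matches on either strand to TGTTCT (the hexamer of a progesterone response element), TATAAA (the core promoter element named the TATA box) or TGANTCA (an AP-1 site, N being any base). In these 4 windows no 2 matches overlap.
S100a4, chr3:90603520-90603819, plus strand: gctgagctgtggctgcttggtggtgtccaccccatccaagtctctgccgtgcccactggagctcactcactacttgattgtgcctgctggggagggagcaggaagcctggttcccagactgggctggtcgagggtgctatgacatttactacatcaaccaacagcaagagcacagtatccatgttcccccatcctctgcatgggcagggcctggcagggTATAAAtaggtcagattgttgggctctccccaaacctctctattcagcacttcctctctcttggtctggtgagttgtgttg
S100a6, chr3:90612644-90612943, plus strand: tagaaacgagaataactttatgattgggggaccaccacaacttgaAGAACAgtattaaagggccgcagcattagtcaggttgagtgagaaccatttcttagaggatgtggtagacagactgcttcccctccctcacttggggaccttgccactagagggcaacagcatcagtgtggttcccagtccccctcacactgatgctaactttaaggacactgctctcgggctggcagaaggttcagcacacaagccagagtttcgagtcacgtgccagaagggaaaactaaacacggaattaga
S100a13, chr3:90514185-90514484, plus strand: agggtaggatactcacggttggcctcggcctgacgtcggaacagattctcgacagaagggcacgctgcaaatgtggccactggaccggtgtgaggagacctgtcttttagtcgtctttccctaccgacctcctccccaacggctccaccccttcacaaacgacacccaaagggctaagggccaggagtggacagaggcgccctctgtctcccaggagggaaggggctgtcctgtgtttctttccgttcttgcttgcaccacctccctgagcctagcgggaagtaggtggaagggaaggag
S100a11, chr3:93520246-93520545, plus strand: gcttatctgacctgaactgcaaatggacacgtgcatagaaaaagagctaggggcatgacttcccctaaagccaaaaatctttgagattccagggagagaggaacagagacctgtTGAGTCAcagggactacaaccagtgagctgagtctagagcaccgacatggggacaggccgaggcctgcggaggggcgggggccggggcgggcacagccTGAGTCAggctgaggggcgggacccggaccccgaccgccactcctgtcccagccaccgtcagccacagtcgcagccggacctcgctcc
The S100a4 window held a TATA box and neither of the other motifs. The S100a6 window held the response element hexamer, S100a13 none of the 3 motifs, and S100a11 a pair of AP-1 sites. Of the 13 windows of the 9 S100 genes with an entry, 4 held the TATA box, 2 the hexamer and 2 the AP-1 site, against 13.6%, 19.0% and 7.81% of all 32851 windows. The windows of S100a13 and S100a1 run in opposite directions and share 204 bases. A match is a run of letters and not a measured site, and the arrays hold no measurement of promoter use.

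S100a4, which binds nonmuscle myosin and is linked to cell motility and metastasis, had the lowest ratio. The 3 arrays gave log2 ratios of -2.73, -2.82 and -2.73, with a mean of -2.76 ± 0.05 (SD, n = 3; limma adjusted p = 1.2e-05). Only 0.35% of all probes had a log2 ratio as low or lower. The probe was bright in both channels. The Cy5 spot read 14674, 11993 and 14349 on replicates 1, 2 and 3, and the Cy3 spot 28814, 26110 and 28952. The reference signal was thus higher than the EpH4-PR signal on every array even before any correction for dye or intensity. The size of the S100a4 ratio depends on the correction for intensity (loess), which took 1.73 off it. The median log2 ratio before loess of the 200 probes nearest to S100a4 in intensity was lower, at 1.38. Only 116 probes had a higher mean intensity than S100a4, so the loess curve rests on few probes there. S100a4 stayed called lower under every alternative, with a log2 ratio of -1.19 under median centring, -2.49 with the scanner software's ratio and between -2.78 and -2.73 with each array left out.

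Mesenchymal markers were also low against the reference RNA. Of 19 probes of 10 such genes, 10 were called lower and 0 higher, with a median log2 ratio of -1.21. Median centring called 7 lower and 0 higher, with a median of -0.46. There the lowest probes of Zeb1 (-0.87), Pdgfrb (-0.42) and Fn1 (0.13) lost their call, and Fn1 changed sign. The scanner software's ratio called 12 lower and normexp offset 0 called 14, with 0 higher in each. Their summed Cy5 intensity lay between 6148 and 6699 on the 3 arrays and their summed Cy3 intensity between 44996 and 50751. The lowest probe of each gene was that of Vim (-6.51), Col3a1 (-5.10), Col1a1 (-5.04) and Col1a2 (-4.30), followed by Thy1 (-3.07), Zeb2 (-1.79), Zeb1 (-1.52), Pdgfrb (-1.37) and Fn1 (-1.21), while the single probe of Twist1 lay at -0.016. Other probes of the same genes were nearer 0, such as those of Vim (-0.14) and Col3a1 (-0.23 and -0.14). The Vim probe and the Col3a1 probe at -0.23 were not well above background in Cy5 on any array. The Col3a1 probe at -0.14 was so flagged on all. Its Cy3 spot (148, 142 and 98.25) lay below the 95th percentile of negative control spots on each (162, 168 and 107). These 3 ratios are thus limited by signal over background. All 10 genes had a probe well above background in Cy5 on the 3 arrays. The lowest-ratio probe of each gene also read above the 95th percentile of negative control spots in Cy5. That of Zeb2 read 146, 145 and 123 against 85.9, 87.4 and 62.9 on replicates 1, 2 and 3. Each marker thus gave a signal above blank spots, and whether other transcripts add to it was not tested. The part of these markers in the S100a4 ratio was not tested, and in bulk RNA fewer cells of a type and less RNA in each cell cannot be told apart.

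S100a6 (calcyclin), known for binding annexins and the calcyclin-binding protein Cacybp, is separated from S100a4 on the chromosome by S100a5. Its log2 ratio was -0.91, -0.95 and -0.87, a mean of -0.91 ± 0.04 (SD, n = 3; limma adjusted p = 8.8e-05), short of the size limit. The S100a4 ratio was lower than that of S100a6 by nearly the same amount on each array, at -1.83, -1.87 and -1.86 (mean -1.85 ± 0.02, SD, n = 3). The sign of S100a6 rested on the normalization. Its Cy5 spot read 38051, 35613 and 40028 against 20789, 20768 and 21864 in Cy3, and under median centring its log2 ratio was 0.69. Only 49 probes had a higher mean intensity than S100a6, so the loess curve rests on few probes there. Loess took 1.75 off the S100a6 log2 ratio. The median log2 ratio before loess of the 200 probes nearest to it in intensity was lower, at 1.29.

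S100a13, which takes part in the release of Fgf1 and Il1a, proteins that lack a signal peptide, was the other gene called lower. Its log2 ratio was -1.33, -1.47 and -1.45, a mean of -1.42 ± 0.07 (SD, n = 3; limma adjusted p = 3.8e-05), equal to a 2.67-fold lower level. The Cy5 spot read 329, 300.0 and 333 and the Cy3 spot 417, 419 and 418 on replicates 1, 2 and 3, so the reference was the brighter channel on every array. Under median centring S100a13 stayed below 0 at -0.44 and was no longer called.

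S100a1, best known in heart and muscle, where it binds ryanodine receptors, starts next to S100a13 in the opposite direction. Its log2 ratio was -0.69, -0.82 and -0.91, a mean of -0.81 ± 0.11 (SD, n = 3; limma adjusted p = 0.00028). The ratio of S100a1 exceeded that of S100a13 by 0.64, 0.65 and 0.54 on the 3 arrays, a mean of 0.61 ± 0.06 (SD, n = 3). S100a1 passed the size limit with normexp offset 0 and with the scanner software's ratio (-1.10 with each), and lay at -0.091 under median centring.

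S100a10 and S100a11 are the subunits that join Anxa2 and Anxa1 at membranes, and S100a10, which does not bind calcium, also captures plasminogen at the cell surface. S100a10 had log2 ratios of -0.24, -0.25 and -0.25, a mean of -0.24 ± 0.0063 (SD, n = 3; limma adjusted p = 0.0066), and S100a11 had -0.0085, 0.12 and 0.17, a mean of 0.094 ± 0.092 (SD, n = 3; limma adjusted p = 0.20). The interval of S100a11 ran from -0.042 to 0.23. The S100a10 ratio minus that of S100a11 was below 0 on all 3 arrays, at -0.34 ± 0.10 on average (SD, n = 3). Both spots were brighter in Cy5 than in Cy3, at 13270, 11689 and 12729 against 4886, 4530 and 4851 for S100a10 and 3425, 3142 and 3783 against 1201, 1063 and 1182 for S100a11. Under median centring both genes were called higher, with log2 ratios of 1.26 and 1.48. Before loess their ratios were 1.41 and 1.63, against medians of 1.49 and 1.65 for the 200 probes nearest to each in intensity. Loess took 1.65 off the S100a10 log2 ratio, more than its value before loess, which left it below 0. It took 1.54 off that of S100a11, most of its value before loess. The sign of S100a10 thus rested on the normalization.

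**Figure D2:**
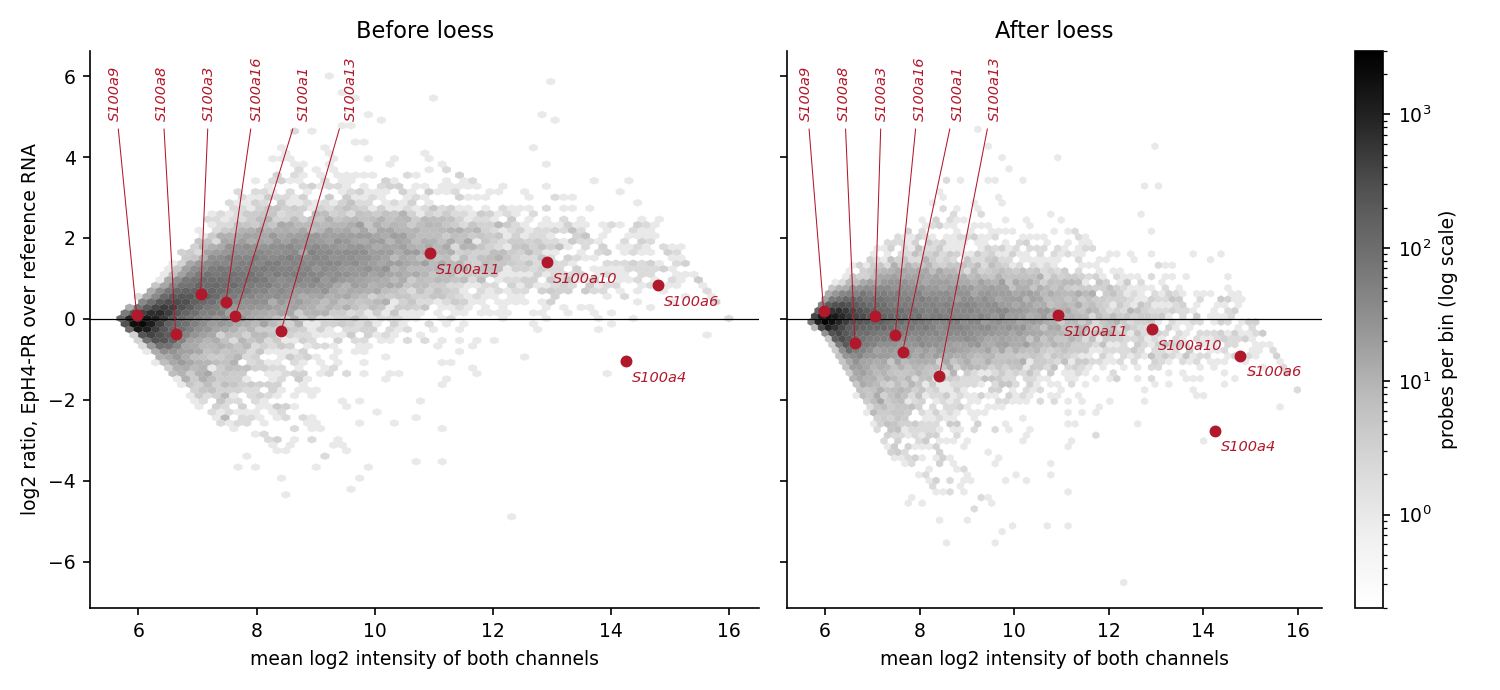
Log2 ratios (EpH4-PR against the reference RNA, mean of 3 arrays) plotted against the mean log2 intensity of both channels, before and after loess, with all probes as grey bins shaded by the number of probes and the 10 S100 genes as red points. Before loess most bright probes lie above 0, S100a11 and S100a10 lie near the middle of the bright probes (1.63 and 1.41), and S100a4 (-1.04) lies far below them.

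S100a8 and S100a9, the subunits of calprotectin, were read close to the negative control spots. S100a8 passed the scanner's test against background for both dyes and all arrays, with log2 ratios of -0.35, -0.63 and -0.81 and a mean of -0.60 ± 0.23 (SD, n = 3; limma adjusted p = 0.0051), the widest spread of the 10 genes. Its Cy5 spot read 110, 94.7 and 87.4, above the 95th percentile of negative control spots on each array (85.9, 87.4 and 62.9), while its Cy3 spot read 160, 160 and 141, above that percentile only on replicate 3 (162, 168 and 107). S100a9 was well above background in Cy5 on 1 of the 3 arrays and in Cy3 on 1 of them, and its Cy5 readings of 80.8, 80.0 and 62.8 lay below the same percentile on every array. The S100a9 log2 ratio of 0.32, 0.18 and 0.088 (mean 0.19 ± 0.12, SD, n = 3; limma adjusted p = 0.045) was thus measured at the limit of detection, and it was -0.044 under median centring and 1.06 with normexp offset 0. S100a8 was called lower with normexp offset 0 (-1.20) and with the scanner software's ratio (-1.54).

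Markers of myeloid cells, the usual source of S100a8 and S100a9, had 3 of 14 probes called lower and 0 called higher, with a median log2 ratio of -0.21. Of the 7 genes with a probe, the lower calls belonged to Ptprc and Lyz2. The lowest Ptprc probe was not well above background in Cy5 on any array, with a log2 ratio of -4.50 (limma adjusted p = 1.1e-05). With its Cy5 signal taken as no lower than the lowest signal so flagged, the reference RNA was 19.8-fold higher. This fold is no strict lower bound. Another probe flagged in Cy5 on no array, that of Ltf, had a higher Cy5 signal (6.14 against the 5.66 used, log2 scale). The lowest Lyz2 probe had a log2 ratio of -3.42. Of the others, Csf1r lay between -0.75 and 0.065, Ltf between -0.26 and 0.0084, Itgam between -0.17 and -0.027, Elane at -0.040 and Mpo at 0.0042. Of the 14 probes, 7 were well above background in Cy5 on all arrays and 5 on none, both probes of Itgam among the latter. The summed Cy5 intensity of the myeloid probes lay between 1088 and 1389 and their summed Cy3 intensity between 2973 and 3450. The median negative control spot read 57.3 to 74.1 in Cy5 and 91.8 to 121 in Cy3. Much of the Cy5 sum over 14 probes is therefore the level of blank spots. The part of these markers in the S100a8 ratio was not tested.

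**Figure D3:**
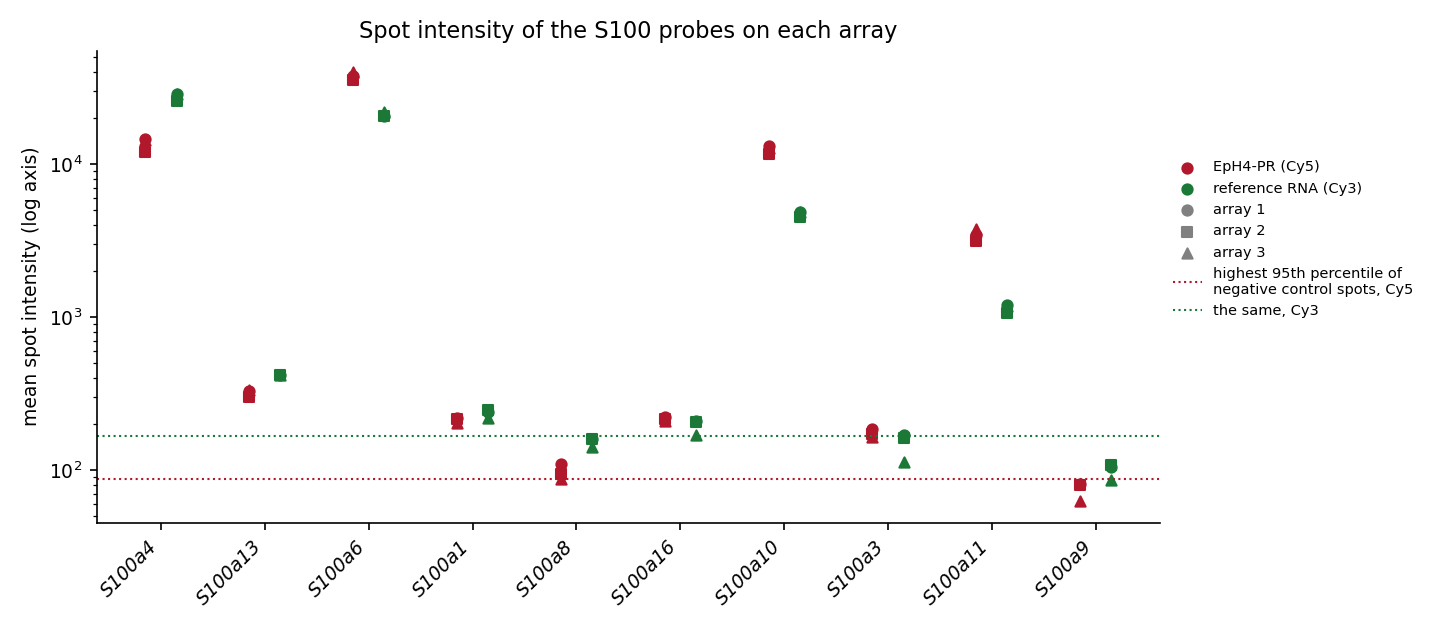
Mean spot intensity of the 10 S100 probes in Cy5 (EpH4-PR, red) and Cy3 (reference RNA, green) on each array, on a log axis and in the order of the log2 ratios, with marker shapes for the arrays and dotted lines at the highest 95th percentile of negative control spots over the arrays, 87.4 in Cy5 and 168 in Cy3. S100a9 lies below the dotted line of each channel on every array, and S100a8 does so in Cy3.

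S100a16, a widely expressed member, had log2 ratios of -0.38, -0.45 and -0.34, a mean of -0.39 ± 0.06 (SD, n = 3; limma adjusted p = 0.0017), which became 0.26 under median centring. S100a3, a protein of the hair cuticle, had log2 ratios of -0.049, -0.061 and 0.30, a mean of 0.065 ± 0.21 (SD, n = 3; limma adjusted p = 0.56), with an interval from -0.16 to 0.29. Replicate 3 stood apart: without it the mean of S100a3 was -0.055. Its Cy3 spot read 170, 162 and 114 on replicates 1, 2 and 3, while the Cy5 spot read 185, 171 and 164.

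In the order of mean ratios, from S100a4 through S100a13, S100a6, S100a1, S100a8, S100a16, S100a10, S100a3 and S100a11 to S100a9, the array values of 4 of the 9 neighbouring pairs did not overlap. These were S100a4 and S100a13 (1.34 apart on average), S100a13 and S100a6 (0.51), S100a16 and S100a10 (0.15), and S100a10 and S100a3 (0.31). S100a6, S100a1 and S100a8 each overlapped the next gene in the order, as did S100a3 with S100a11 and S100a11 with S100a9. Compared within each array, S100a1 lay below S100a8 on all 3 (0.21 ± 0.12 apart, SD, n = 3). The other overlapping pairs kept their order on 2 of the 3 arrays, so the order within them is not settled. The order of S100a1 and S100a8 turned under each of the other normalizations. Their means were -0.091 and -0.54 after median centring. They were -1.10 and -1.54 by the scanner's own ratio, and -1.10 and -1.20 with normexp offset 0. The order of S100a10 and S100a3 also turned under median centring, where their means were 1.26 and 0.46.

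**Figure D4:**
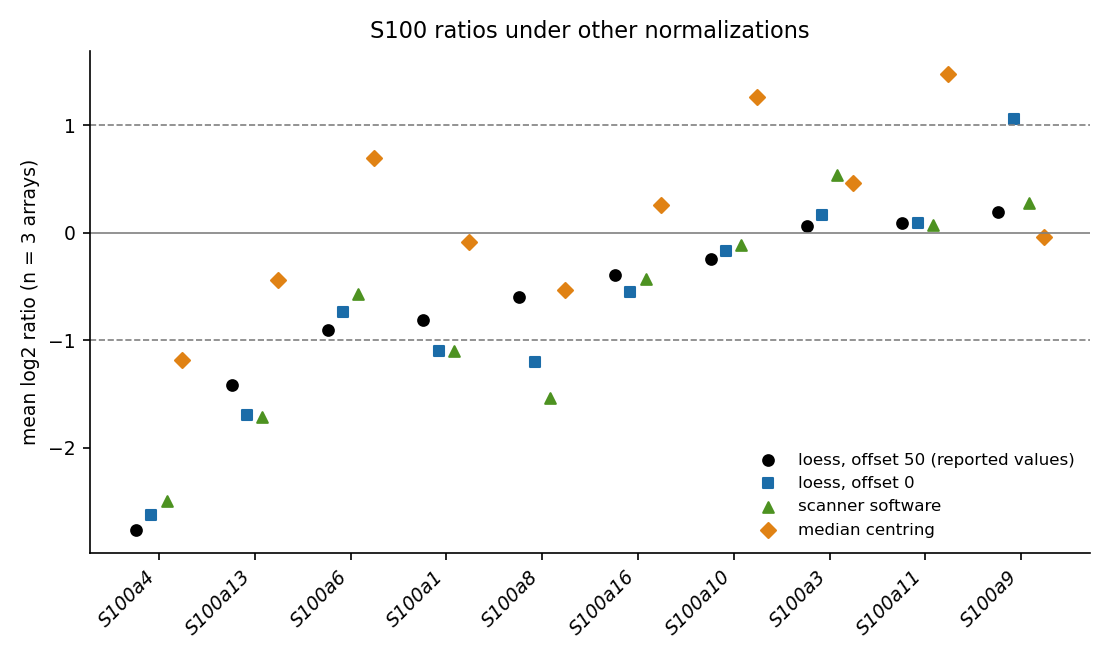
Mean log2 ratio over 3 arrays of the 10 S100 genes under 4 normalizations: loess with normexp offset 50 (black), loess with offset 0 (blue), the scanner software's ratio (green) and median centring (orange), with dashed lines at -1 and 1. S100a4 lies below -1 under each of them, and median centring moves the bright genes most, S100a6 to 0.69, S100a10 to 1.26 and S100a11 to 1.48.

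All 10 genes lie on chromosome 3. In the RefSeq gene table of GRCm38.p6, 8 of them fall within 12 successive protein-coding genes from S100a1 to S100a9, and S100a11 and S100a10 follow side by side after 56 further genes that include the loricrin, small proline-rich and late cornified envelope families. Of the 38 other genes in this stretch with a probe, carried by 43 probes, 1 probe was called higher and 0 lower, and the median log2 ratio was 0.098. Median centring called 6 of these probes higher and 0 lower, the scanner software's ratio 6 and 2, and normexp offset 0 called 5 and 2. The lowest was Sprr1a at -0.84. The gene called higher was S100a14, next to S100a13, with log2 ratios of 1.37, 1.12 and 1.46 and a mean of 1.32 ± 0.18 (SD, n = 3; limma adjusted p = 0.00015), and it was called higher under all 3 of these settings. Its Cy3 spot (131, 136 and 99.6 on replicates 1, 2 and 3) lay below the 95th percentile of negative control spots on each (162, 168 and 107). The size of the S100a14 ratio is thus limited by the reference signal. It was 1.93 under median centring, 2.83 with the scanner software's ratio and 2.23 with normexp offset 0. S100a13 at -1.42 and S100a14 at 1.32, which are adjacent, thus lay past opposite limits, although S100a13 did not under median centring. Of the other S100 genes, S100a5 (0.017) and S100b (-0.025) were flagged well above background on all arrays with ratios near 0. The Cy3 spot of S100a5 (128, 137 and 105) lay below the same negative control percentile on each array. That of S100b (135, 129 and 110) did so on replicates 1 and 2, so both ratios are limited by the reference signal. S100a7a was not well above background in either channel on any array. S100g was not well above background in Cy5 on any array, and its Cy3 spot (125, 134 and 104 on replicates 1, 2 and 3) lay below the 95th percentile of negative control spots on each, so no fold is given.

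**Figure D5:**
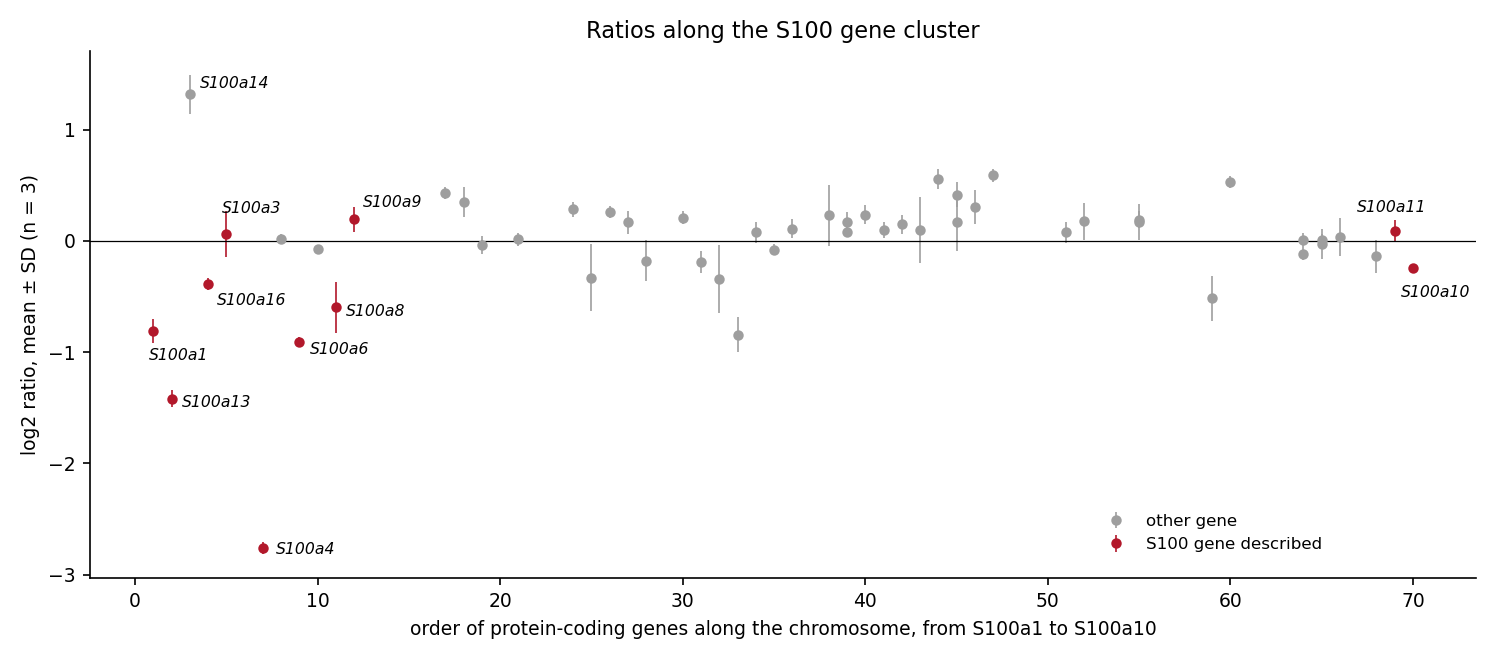
Log2 ratios (EpH4-PR against the reference RNA, mean ± SD over 3 arrays, 1 point for each probe) of the protein-coding genes with a probe, in their order along the chromosome from S100a1 to S100a10 (the x axis counts genes, not bases). S100a14 (1.32) stands highest and S100a4 (-2.76) lowest, while the genes between S100a9 and S100a11 lie between -0.84 and 0.59.

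Among the annexins that S100 proteins bind, 0 of 7 probes of 5 genes were called in either direction, and all were well above background in Cy5 on every array. The probe of Anxa1, the partner of S100a11, had a log2 ratio of 0.55 ± 0.05, while the 2 probes of Anxa2, the partner of S100a10, lay at -0.36 ± 0.08 and -0.028 ± 0.09 (SD, n = 3). Anxa6 lay at 0.49 and 0.60, Anxa5 at -0.22 and Anxa11 at 0.057. Under median centring 5 of these 7 probes were called higher, as S100a10 and S100a11 were. The median of the annexin probes then moved from 0.057 to 1.18.

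Of 37 probes of 16 other binding partners, 2 were called higher and 3 lower, with a median log2 ratio of -0.034. These calls depended on the normalization, with 9 higher and 1 lower under median centring, where both Plat probes lost their call (-0.86 and -0.85), and 5 higher and 4 lower with the scanner software's ratio. The highest were Ahnak (1.56), a large protein that the S100a10 and Anxa2 complex binds, Trp53 (1.53) and Cacybp (0.72), the binding partner of S100a6. The other probe of Ahnak lay at 0.31 and that of Trp53 at -0.29, so the probes of these genes disagreed. The lowest were plasminogen, Plg (-3.22), which was -0.17 on a second probe that was not well above background in Cy5 on every array, and its activator Plat (-1.75 and -1.12, and -0.079 on a probe not well above background), both tied to S100a10 at the cell surface. Among the receptors for released S100 proteins, 3 of 6 probes were called lower and 0 higher. Bsg, a receptor for S100a9, had a log2 ratio of -1.19 ± 0.05 (SD, n = 3; limma adjusted p = 4.6e-05). Its Cy5 spot read 526, 495 and 526 and its Cy3 spot 552, 510.1 and 504, and under median centring its log2 ratio was -0.083 and it was not called. The probes of the scavenger receptor Cd36 had -1.75 and -1.65 although they were well above background in Cy5 on 1 and 2 of the 3 arrays. Tlr4 lay at -0.52 and, on a probe not well above background in Cy5 on any array, at -0.16. Ager, the receptor for advanced glycation end products, lay at 0.20. Its probe was well above background in Cy5 on 2 of the 3 arrays and in Cy3 on 1. Both genes were uncalled, although normexp offset 0 called Ager higher (1.00).

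The labelled epithelial identity was checked against its markers. Of 9 probes of 8 epithelial genes, 8 were called higher (Cdh1, Cldn4, Cldn7, Epcam, Krt7, Krt18 and both probes of Krt8, from 1.11 to 4.29) and Krt19 lower (-2.62). All were well above background in Cy5. The Cy3 spot of Cldn4 (124, 125 and 99.0) lay below the 95th percentile of negative control spots on each array (162, 168 and 107). That of Cdh1 (146, 141 and 116) did so on replicates 1 and 2, so the sizes of both ratios are limited by the reference signal. Of the basal markers, Krt14 was higher (2.08) and Krt5 lay at -0.11. The probes of Acta2 spread from -2.01 to 0.60 and those of Trp63 from -0.23 to 0.023. The Acta2 probe at -2.01 was well above background in Cy5 on 1 array. That at 0.60 was so flagged on all, with Cy5 spots of 6064, 6353 and 6037, and was called higher under median centring (2.03). The Trp63 probe at -0.23 was flagged on all 3 arrays, and those at -0.16 and 0.023 on none. The 2 probes of Pgr, the mouse progesterone receptor gene, were each well above background in Cy5 on 1 array, and whether they can detect the transfected PR-A was not tested. Over all probes 928 were called higher and 1584 lower, so 36.9% of calls were higher. Median centring raised that share to 90.8%, the scanner software's ratio to 48.2% and normexp offset 0 to 44.3%.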

How the data were processed

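EpH4-PR RNA (Cy5) and a commercial reference RNA (Cy3) were measured on 3 two-colour arrays. The authors deposited the output of Agilent Feature Extraction 8.1.1.1 for each array, with spot and local background intensity for each dye, flags of 0 or 1 (an other kind of value) and a log10 ratio (Cy5 to Cy3) made after background subtraction, spatial detrending and dye normalization. A table of the authors' own comparison between sides that its header does not name (log ratios, folds, p-values and intensities) was not used. No genome build is named in the files. Symbols and windows came from RefSeq tables of GRCm38.p6, which matched 21437 of 23705 probes with a RefSeq accession.

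Mean spot intensities were corrected with normexp (offset 50) and normalized within arrays by loess with control spots at weight 0, in R 4.3.3 with limma 3.58.1. Outlier spots (150, 18 and 3 on replicates 1, 2 and 3) were left out and spots of a probe averaged. The log2 ratio was tested against 0 with lmFit and eBayes over 41171 probes with at least 2 arrays, with Benjamini-Hochberg adjustment. Intervals are 95% intervals of that fit, and percentiles are over all probes. The fit was tested on simulated data. Having 3 arrays limits the precision. Median spot intensity was 93.8 to 113 for Cy5 and 108 to 142 for Cy3, while local background was 42 to 43 and 39 to 43. The Ptprc bound used, on each array, the higher of the probe's own Cy5 signal and the lowest normalized Cy5 signal among probes well above background. Named genes were the 10 members, every gene of lists with at most 10 genes and, for the longer list, the 3 highest and 3 lowest probes well above background in both channels. Other probes of Ahnak, Trp53, Plg and Plat were added after their values were seen. Lists covered other S100 genes, fused-type genes, annexins, other partners, receptors, cornified envelope genes and epithelial, basal, mesenchymal and myeloid markers; Flg2, Tchh, Crnn, S100z, S100pbp and Ly6g had no matched probe. The members and lists were chosen with earlier results of these data known, and the windows, nearest-intensity medians and gene order were examined after the ratios were seen. Alternatives changed the background offset, the normalization, the spot summary, outlier spots, dim probes, the variance model, the test and the arrays used. Figures used Python 3.11.15 with matplotlib 3.10.9.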

Additional observations from a re-analysis of the deposited data

How the results depend on the processing

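Of 119 recomputed S100 ratios, 108 kept their sign and whether they were called. Many of these could not change sign or size. Keeping outlier spots, filtering dim probes, changing the variance model and changing the test left each S100 log2 ratio they gave at its main value. The count is thus no measure of how stable the ratios are. S100a4 stayed called lower in each alternative run. Under median centring S100a6 (0.69), S100a16 (0.26), S100a10 (1.26) and S100a9 (-0.044) changed sign, S100a10 and S100a11 (1.48) were called higher, so that 2 S100 probes were higher and 1 lower, and S100a13 (-0.44) lost its call. The median of all probes was -0.0094 with loess and -0.013 with median centring, each of which centres the arrays by construction. With normexp offset 0, S100a1 (-1.10) and S100a8 (-1.20) were also called, and with the scanner software's ratio S100a1 (-1.10) and S100a8 (-1.54), so that 4 S100 probes were lower in each. Counts over all probes were 7029 higher and 709 lower after median centring, 3616 higher and 3887 lower from the scanner software and 3115 higher and 3909 lower for offset 0. The cause was not tested. With each array left out S100a3 ranged from -0.055 to 0.13. S100a9 has no value once dim probes are filtered. Every S100 gene has 1 probe and no S100 spot was saturated, so averaging probes and leaving out saturated spots change nothing and were not run. No paired analysis was possible because the samples form a single group. Slide and scan could not be used as blocks, since each slide holds 1 array. Dim spots, among them S100a8, S100a9 and the Cy3 spot of S100a3, are limited by signal over background.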

Other observations

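The genes of the cornified envelope, which share the chromosomal stretch with the S100 cluster in part, had 0 of 8 probes called in either direction by limma after loess. Other settings called some of them, 2 higher and 1 lower with the scanner software's ratio, 1 higher and 1 lower with normexp offset 0, and 1 higher and 0 lower under median centring. Tgm1 was called higher in each of these (1.04 to 2.37). Of the 8 probes, 5 were well above background in Cy5 on all arrays. Tgm1, the transglutaminase that cross-links the envelope, had a log2 ratio of 0.75 ± 0.08, Lor one of 0.35 ± 0.14 and Tgm3 one of 0.20 ± 0.06 (SD, n = 3). The Cy3 spot of Tgm1 read 135, 131 and 95.5 and that of Tgm3 135, 136 and 96.9. Both lay below the 95th percentile of negative control spots on each array (162, 168 and 107). That of Lor (127, 121 and 107.1) did so on replicates 1 and 2, so these ratios are limited by the reference signal. Sprr1a lay at -0.84 ± 0.16 (SD, n = 3), Sprr1b at -0.19, Sprr3 at -0.34, Ivl at -0.080 and Sprr2a1 at 0.014, and Sprr2a1 belongs to a family of near-identical copies that a probe may not tell apart. The fused-type S100 genes Flg, Hrnr and Rptn had 5 probes, of which 0 were well above background in Cy5 on all arrays.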
